A study of Mus musculus with 15 samples.

Results

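The genes described here encode the folding machinery of the endoplasmic reticulum, the sensors of the unfolded protein response and the factors that send misfolded proteins from this compartment to degradation. They were taken from a list of 35 genes, of which 30 had a value on the arrays, among 15025 genes in all, and all 30 were bright enough to be tested. Pdia5, Atf6, Dnajc3, Edem3 and Ero1lb (now Ero1b) were not analysed here. RNA was measured on 15 Affymetrix mouse exon arrays in the lines 3134 and AtT-20. The 3134 cells are a mammary adenocarcinoma line of RIII mouse origin obtained by transforming C127, and AtT-20 cells are corticotrophs, the cells of the anterior pituitary that make the hormone precursor Pomc. After culture in serum stripped of steroids with charcoal, which all groups shared, cells received 100 nM dexamethasone, a synthetic glucocorticoid that activates the glucocorticoid receptor, for 2, 4 or 8 h. The 0 h arrays of each line, described both as untreated and as vehicle treated, were the controls. Groups held 2 arrays each, apart from AtT-20 at 8 h, which held 1. Each tissue is stood for by 1 line, so line and tissue cannot be told apart. Cells cultured for the same hours without hormone were not analysed here, so the effect of dexamethasone and that of time in culture cannot be told apart. The labels do not say that replicates came from separate cultures, so p-values measure the spread between these arrays only, which may be technical.

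Proteins that enter the endoplasmic reticulum are bound by the Hsp70 chaperone Hspa5 (BiP) and its cofactors, by the Hsp90 chaperone Hsp90b1 (GRP94) and, through their glycans, by the lectins Calr and Canx, while protein disulfide isomerases form their disulfide bonds. Unfolded proteins activate the sensors Ern1 (IRE1), Eif2ak3 (PERK) and Atf6. Ern1 splices the Xbp1 transcript, and Xbp1 and Atf6 then induce chaperone and degradation genes, many through an endoplasmic reticulum stress element (ERSE) in their promoters. Cells that secrete much protein, such as hormone-producing cells, are known for a high content of this machinery. In bulk samples such as these, fewer cells of a kind and less RNA per cell cannot be told apart.

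The lines and the exposure were checked on marker genes. All 6 corticotroph markers reached the level that a gene had to reach to be tested (log2 6.59) in AtT-20 at 0 h and 0 of 6 reached it in 3134, where the mean level of the list lay between 4.81 and 5.26 on the arrays against 10.5 to 10.8 in AtT-20. Of 6 mesenchymal markers, 5 reached this level in 3134 and 1 in AtT-20. Of 5 epithelial markers, only Krt8 did so in 3134, which is labelled a mammary adenocarcinoma line, and Krt8 and Krt18 did so in AtT-20. Krt8 was at 6.84 and 6.70 in 3134 and at 11.93 and 11.44 in AtT-20 at 0 h. Of 4 immune and 4 endothelial markers, Cd68 and Cdh5 reached the level in 3134, and 0 of either list did in AtT-20. Fkbp5, Per1 and Tsc22d3, textbook targets of the glucocorticoid receptor, rose in 3134 in the mean of 2, 4 and 8 h, by log2 2.84, 2.49 and 2.73. In AtT-20, in the mean of 2 and 4 h, Per1 rose by 1.25 and Fkbp5 by 0.91, and Tsc22d3 had a difference of 0.66 that did not pass. The mesenchymal marker Pdgfrb fell by 0.71 in 3134 in a fit with the run as a block, where the run is the first or second set of arrays of a line by serial number, and its part in the results below was not tested. The AtT-20 calls rest on few arrays: that of Per1 was lost without replicate 2 at 0 h (1.15, adjusted p = 0.109), and that of Fkbp5 without either array at 2 h or at 0 h (0.82 to 0.99, adjusted p from 0.0748 to 0.311).

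The promoters of the members were searched for the elements named above. RefSeq windows (assembly GRCm38.p6, from 250 bases before to 50 bases after the transcript start) were found for 26 of the 30 measured members, all but Manf, Hyou1, Sil1 and Derl1. The ERSE was searched on both strands as CCAAT, any 9 bases and CCACG. It was found in 8 of 26 members (30.8%) and in 37 of 27025 genes with a window (0.137%). The ERSE-II, searched as ATTGG, any 1 base and CCACG, was found in 2 of 26 members (7.69%) and in 12 of 27025 genes (0.044%). CCAAT alone, which is part of the ERSE on either strand and whose complement begins the ERSE-II, was found in 20 of 26 members (76.9%) and in 41.1% of genes. The core of the unfolded protein response element, TGACG directly followed by TGG, was found in 0 of 26 members and in 0.714% of genes, and a glucocorticoid response element (AGAACA, any 3 bases, TGTTCT) in 0 of 26 members and in 0.011% of genes. A match is a stretch of letters and no measured binding site, and its absence says only that these letters are not in the window.

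The elements found are listed because 10 of the 26 members with a window carry one, among them Hspa5, Hsp90b1, both lectins Calr and Canx, and Herpud1. They are written in the direction of the motif, with its fixed letters in capitals.
Hspa5, chr2:34772025-34772043: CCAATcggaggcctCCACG
Hsp90b1 far element, chr10:86705638-86705656: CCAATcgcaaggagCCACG
Hsp90b1 near element, chr10:86705533-86705551: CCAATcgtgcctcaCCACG
Calr, chr8:84847075-84847093: CCAATgagggtcgaCCACG
Canx, chr11:50325800-50325818: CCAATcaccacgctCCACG
Pdia6, chr12:17266491-17266509: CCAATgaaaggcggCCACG
Creld2, chr15:88819520-88819538: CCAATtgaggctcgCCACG
Syvn1, chr19:6046532-6046550: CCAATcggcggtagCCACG
Derl3, chr10:75893242-75893260: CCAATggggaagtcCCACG
Herpud1, chr8:94386377-94386387: ATTGGgCCACG
Dnajb11, chr16:22857852-22857862: ATTGGcCCACG

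The Hspa5 element lay 65 to 47 bases before the transcript start. The ERSE-II of Herpud1 lay 52 to 42 bases before it. Derl3, Calr, Creld2 and the near element of Hsp90b1 carried the motif on the strand opposite to the gene. The windows of 4 members are printed whole, with the fixed and spacer letters of each element in capitals. They are Hspa5, the central chaperone, Hsp90b1, with the element on both strands, Derl3, bright in AtT-20 and dim in 3134, and Herpud1, the member that rose after dexamethasone.
Hspa5 window, chr2:34771840-34772139, plus strand: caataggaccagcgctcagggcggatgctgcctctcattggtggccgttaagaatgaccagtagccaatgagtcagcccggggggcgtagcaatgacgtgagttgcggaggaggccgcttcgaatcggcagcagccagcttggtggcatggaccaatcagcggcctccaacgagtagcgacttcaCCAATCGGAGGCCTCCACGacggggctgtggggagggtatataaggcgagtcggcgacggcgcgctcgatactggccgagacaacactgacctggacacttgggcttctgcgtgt
Hsp90b1 window, chr10:86705395-86705694, minus strand: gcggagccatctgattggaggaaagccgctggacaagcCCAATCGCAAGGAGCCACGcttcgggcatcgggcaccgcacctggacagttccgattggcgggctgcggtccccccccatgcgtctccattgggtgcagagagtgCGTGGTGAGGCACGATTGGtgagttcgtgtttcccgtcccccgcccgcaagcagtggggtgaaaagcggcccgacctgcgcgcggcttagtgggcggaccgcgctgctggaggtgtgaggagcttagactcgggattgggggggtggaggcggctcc
Derl3 window, chr10:75893148-75893447, plus strand: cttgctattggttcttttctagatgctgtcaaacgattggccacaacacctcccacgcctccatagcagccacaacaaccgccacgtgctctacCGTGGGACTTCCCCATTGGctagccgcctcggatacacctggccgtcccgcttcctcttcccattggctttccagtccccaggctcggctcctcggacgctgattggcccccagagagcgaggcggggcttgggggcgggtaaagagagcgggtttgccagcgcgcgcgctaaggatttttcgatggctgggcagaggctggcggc
Herpud1 window, chr8:94386179-94386478, plus strand: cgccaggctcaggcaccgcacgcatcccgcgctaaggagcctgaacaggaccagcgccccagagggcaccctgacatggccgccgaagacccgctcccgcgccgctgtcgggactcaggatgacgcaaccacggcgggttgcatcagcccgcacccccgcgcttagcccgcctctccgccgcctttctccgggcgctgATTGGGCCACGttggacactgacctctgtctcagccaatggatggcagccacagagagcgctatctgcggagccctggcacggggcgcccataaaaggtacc

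The lines were compared first at 0 h, where the question is how the basal content of this machinery differs between a corticotroph and a mammary line. Of 30 members, 16 differed (53.3%, adjusted p under 0.05 in limma, Benjamini-Hochberg over all 9919 genes tested), 4 higher and 12 lower in 3134. Derl3, which was dim in 3134, is among the 12. Over all genes tested, 54.5% differed, 24.3% higher and 30.3% lower, so the share of members that differed was near the background. The median difference, 3134 minus AtT-20, was -0.25 over members and -0.10 over all genes on the log2 scale, and the median absolute difference 0.53 and 0.62. With the run of arrays as a block, 5 members were higher and 13 lower, against 66.8% of all genes called. The split depends on the scale: on the values as deposited, with the block, 8 members were higher and 5 lower, while 5458 genes in all were called. The median of all genes was then at 0.22. Differences below are thus relative to a typical gene of these arrays.

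**Figure D1:**
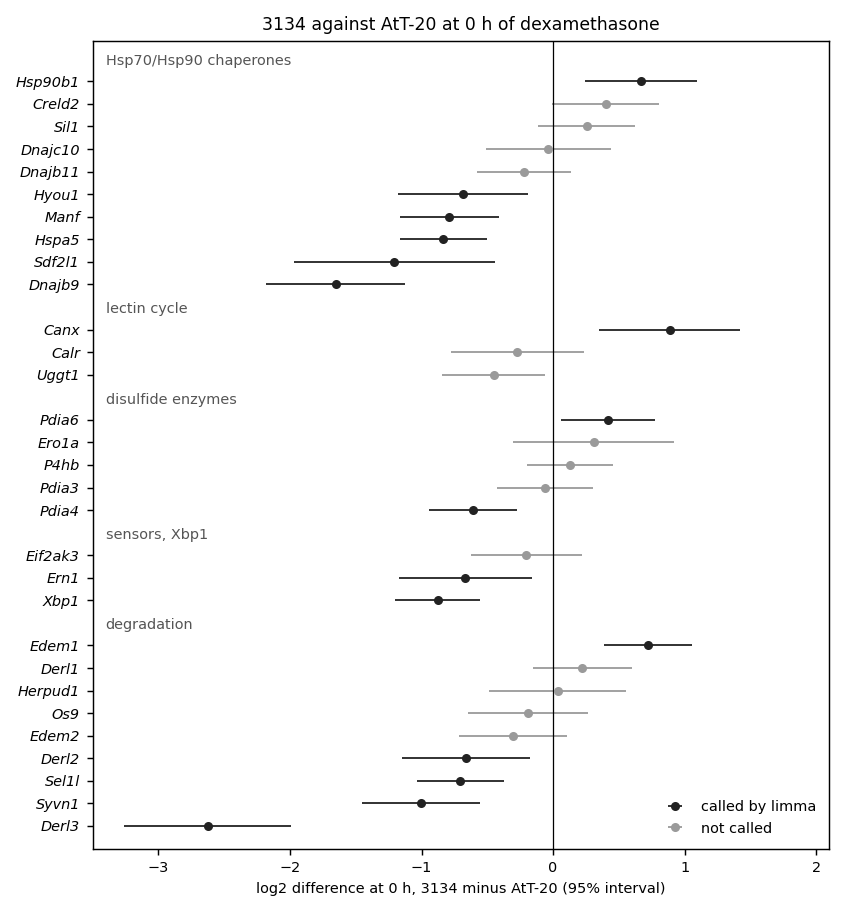
Each point is the log2 difference at 0 h (3134 minus AtT-20, 2 arrays each) of 1 of the 30 measured members with its 95% interval from limma, grouped by role; black points were called and grey points were not. Most black points lie left of 0, with Dnajb9 at -1.65, and with Derl3 at -2.63 from a dim level in 3134, and Hsp90b1, Canx, Pdia6 and Edem1 lie right of it.

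Among the Hsp70 and Hsp90 chaperones and their cofactors, 5 of 10 members were lower in 3134 and 1 was higher. Hspa5, the main Hsp70 chaperone of the compartment, had log2 levels of 11.81 and 12.00 in 3134 and 12.71 and 12.77 in AtT-20 at 0 h. The difference was -0.84 ± 0.151 (SE, n = 2 arrays each), 1.79-fold lower in 3134, with an adjusted p of 0.00053 in limma. Its 13 probesets, each covering a piece of an exon, were all lower in 3134, by 0.22 to 1.01, and with the mean over probesets in place of the median the difference was -0.57 with an adjusted p of 0.0521. Dnajb9 (ERdj4), a J-domain cofactor of Hspa5 that Xbp1 induces, stood at 8.71 and 8.78 in 3134 and at 10.72 and 10.08 in AtT-20. This is a difference of -1.65 ± 0.242 (3.14-fold, adjusted p = 9.7e-05), measured with 4 probesets.

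Sdf2l1, a partner of J-domain proteins in the lumen, had levels of 9.43 and 9.06 in 3134 and 10.87 and 10.04 in AtT-20. All of its AtT-20 arrays lay above all of its 3134 arrays, and the runs of AtT-20 lay farther apart than those of most members. The difference was -1.21 ± 0.350 (adjusted p = 0.0115). It did not pass without replicate 2 of 3134 (-1.02, adjusted p = 0.0800) or without replicate 1 of AtT-20 (-0.79, adjusted p = 0.12). Manf, a secreted factor that also binds Hspa5, was lower by 0.79 ± 0.172 (adjusted p = 0.0020).

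Hyou1 (GRP170), a large Hsp70 relative that exchanges the nucleotide of Hspa5, had a difference of -0.69 ± 0.227 (adjusted p = 0.0223). That call needed 3 of the 4 arrays at 0 h: the difference was -0.54 without replicate 1 of 3134 (adjusted p = 0.148), -0.73 without replicate 1 of AtT-20 (0.0577) and -0.64 without replicate 2 of AtT-20 (0.0893). Hsp90b1 went the other way, with levels of 12.47 and 12.64 in 3134 and 11.92 and 11.84 in AtT-20, a difference of 0.67 ± 0.196 (1.59-fold higher, adjusted p = 0.0119). This call was lost without replicate 2 of 3134 (0.58, adjusted p = 0.0829) and without replicate 2 of AtT-20 (0.63, adjusted p = 0.0568). The central Hsp70 and the Hsp90 of the compartment thus lay on opposite sides, and all 21 probesets of Hsp90b1 were higher in 3134. The remaining cofactors did not pass: Creld2 (0.40, adjusted p = 0.0911), Sil1 (0.26), Dnajb11 (-0.22) and Dnajc10 (-0.03). Creld2 passed with the run as a block (adjusted p = 0.0192), and without replicate 1 of AtT-20 (0.63, adjusted p = 0.0249).

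In the lectin cycle, which retains glycoproteins until they are folded, 1 of 3 members differed. Canx, the membrane-bound lectin, was at 11.40 and 11.59 in 3134 and at 10.66 and 10.57 in AtT-20. It was 1.85-fold higher in 3134 (0.88 ± 0.244, adjusted p = 0.00857), though not past the threshold without replicate 2 of 3134 (0.79, adjusted p = 0.0592). Calr, its soluble relative, had a difference of -0.27 that did not pass (adjusted p = 0.348, 95% interval -0.77 to 0.23). The sign of Calr depends on the summary, since 9 of its 13 bright probesets were higher in 3134, with a median of 0.07 over the 13. Uggt1, which marks unfolded glycoproteins for another round of binding, was at -0.45 with an adjusted p of 0.0504 and passed with the run as a block (adjusted p = 0.00616).

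Among the disulfide enzymes, Pdia4 was lower in 3134 and Pdia6 higher. Pdia4 (ERp72) differed by -0.61 ± 0.153 (adjusted p = 0.00495), and by -0.52 without replicate 1 of 3134 (adjusted p = 0.0519). Pdia6, whose product also binds Hspa5, had levels of 12.38 and 12.58 in 3134 and 12.03 and 12.11 in AtT-20, a difference of 0.42 ± 0.163 (adjusted p = 0.0485). The Pdia6 call did not survive the loss of any of the 4 arrays at 0 h, with differences of 0.52 and 0.31 without replicate 1 or 2 of 3134 and of 0.38 and 0.45 without replicate 1 or 2 of AtT-20 (adjusted p from 0.0663 to 0.255). P4hb, the founding protein disulfide isomerase, Pdia3, which works with the lectins, and the oxidase Ero1a (formerly Ero1l) did not pass, at 0.13, -0.06 and 0.31.

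Of the sensors and their transcription factor, Xbp1 and Ern1 were lower in 3134. Xbp1 had levels of 10.96 and 10.83 in 3134 and 11.85 and 11.69 in AtT-20, a difference of -0.88 ± 0.149 (1.84-fold, adjusted p = 0.000323). The gene value adds spliced and unspliced Xbp1, so it says nothing of how much active factor was made. Ern1, the kinase and nuclease that splices Xbp1, was at 8.28 and 8.09 in 3134 and at 9.15 and 8.56 in AtT-20. Its difference of -0.67 ± 0.230 (adjusted p = 0.0276) did not pass without replicate 1 of 3134 (-0.76, adjusted p = 0.0555), without replicate 2 of 3134 (-0.57, 0.14) or without replicate 1 of AtT-20 (-0.37, 0.251). Eif2ak3, the kinase that slows translation, was at 9.0 and 9.27 in 3134 and at 9.20 and 9.48 in AtT-20. The Eif2ak3 arrays of the lines overlapped, and the difference of -0.20 did not pass (adjusted p = 0.401, 95% interval -0.63 to 0.22).

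Of 9 members that act in degradation, 4 were lower and 1 was higher in 3134. Derl3, a channel component of retrotranslocation and 1 of these 4, stood at 6.13 and 5.59 in 3134 and 8.61 and 8.36 in AtT-20. Its mean of 5.86 in 3134 was under the level of 6.59 set for testing, so Derl3 was tested only because of its level in AtT-20 and its call supports nothing here. The fitted difference of -2.63 is not a measured size, and no fold is given. None of the other members had a mean under that level in either line at 0 h. Syvn1 (Hrd1), the ubiquitin ligase of the pathway, was at 8.44 and 8.20 in 3134 and 9.52 and 9.13 in AtT-20, a difference of -1.0 ± 0.206 (2.00-fold, adjusted p = 0.00135). Its adaptor Sel1l was lower by 0.70 ± 0.153 (adjusted p = 0.00193), so both parts of that ligase complex were lower in 3134.

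Derl2, another derlin, had a difference of -0.66 ± 0.223 (adjusted p = 0.0241), which did not pass without replicate 2 of 3134 (-0.57, adjusted p = 0.131) or without replicate 2 of AtT-20 (-0.33, adjusted p = 0.248). Edem1, which extracts mannose-trimmed glycoproteins from the folding cycle, was at 10.05 and 10.16 in 3134 and at 9.35 and 9.42 in AtT-20. This member was higher in 3134 by 0.72 ± 0.152 (1.65-fold, adjusted p = 0.0016). Edem2 (-0.31), Derl1 (0.22), the lectin Os9 (-0.19) and the ubiquitin-like protein Herpud1 (0.04) did not pass. The opposite sides of Edem1 and Edem2 were not compared by a test.

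Leaving out each of the 4 arrays at 0 h in turn, 8 of the 16 members passed every time: Dnajb9, Syvn1, Xbp1, Hspa5, Manf, Sel1l, Edem1 and Derl3. The last was tested only because of AtT-20, so its passing adds no support. The count of members called lay between 10 and 13, the lowest without replicate 2 of 3134. Shares of all genes are not given for these counts, so nothing about the members in particular is read from them. With arrays centred on the median, Derl2 (-0.55), Ern1 (-0.58) and Pdia6 (0.37) did not pass. On the deposited scale without the block, 1 of 30 members was called. Calls were fewer over all genes too, with 1979 genes there against 5408 after quantile normalization. That drop was smaller in proportion than the drop of the members from 16 to 1.

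**Figure D2:**
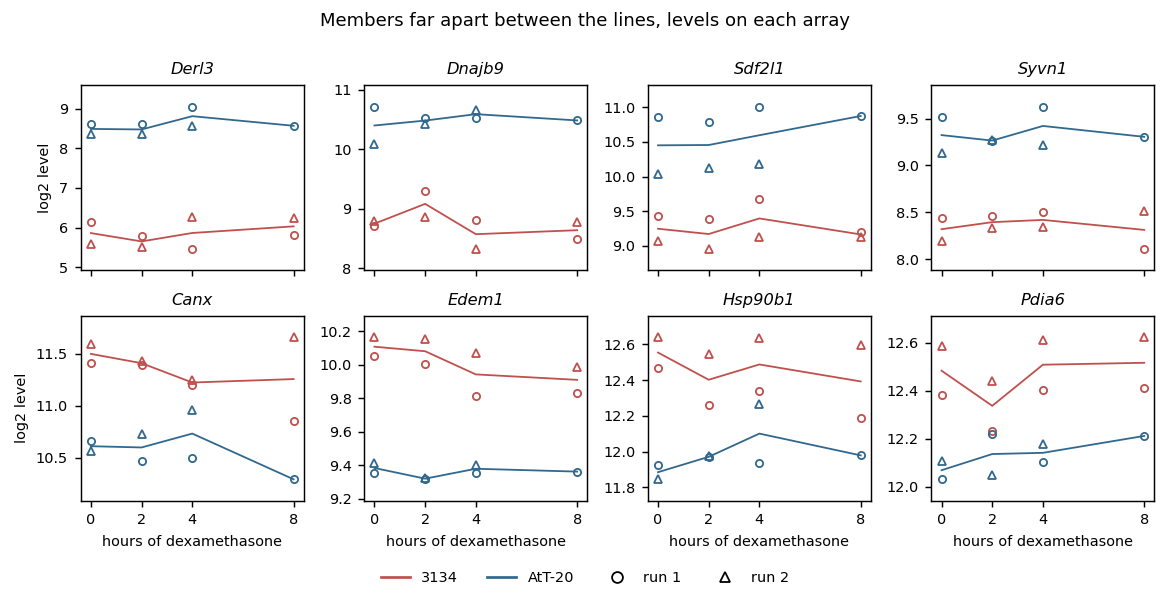
Quantile normalized log2 level (vertical axis, a scale of its own in each panel) against hours of dexamethasone for 4 members called lower and the 4 called higher in 3134 at 0 h; symbols are single arrays of run 1 or 2, lines join group means, and AtT-20 at 8 h has 1 array. The lines stay apart over all times for Derl3 (5.47 to 6.26 in 3134, 8.35 to 9.05 in AtT-20) and Edem1 (9.82 to 10.16 against 9.32 to 9.42), whereas the arrays of Canx and Hsp90b1 overlap. Derl3 was dim in 3134 and tested only because of AtT-20, so nothing is read from its separation.

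The same differences were then read at 2 h and 4 h, whose group means come from other arrays, although the fit shares 1 spread per gene over all 15 arrays. At 2 h, 14 members differed, 3 higher and 11 lower, against 54.9% of all genes. At 4 h, 15 differed, 2 higher and 13 lower, against 54.1% of all genes. Of the 16 members called at 0 h, Derl3 among them, 13 were called again in the same direction at 2 h and 13 at 4 h. All 16 kept their sign at both times. How often genes in general were called again was not analysed here, so nothing about the members in particular is read from these counts. Hsp90b1 and Pdia6 were called at neither later time (0.43 and 0.20 at 2 h, 0.39 and 0.37 at 4 h), and Canx was called at 2 h (0.81) but not at 4 h (0.49, adjusted p = 0.111).

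Over arrays of all times, 8 of 3134 and 7 of AtT-20, the lines did not overlap for 15 of 30 members, against 52.6% of all genes. Edem1 and Pdia6 were the 2 that lay higher in 3134, and 13 lay lower: Derl2, Derl3, Dnajb9, Ern1, Hspa5, Hyou1, Manf, Pdia4, Sdf2l1, Sel1l, Syvn1, Uggt1 and Xbp1. Derl3 is counted there although all of its 3134 arrays read under 6.59. Hspa5 ran from 11.63 to 12.00 with a median of 11.92 in 3134, and from 12.63 to 12.82 with a median of 12.76 in AtT-20. Dnajb9 ran from 8.33 to 9.30 (median 8.78) in 3134 and from 10.08 to 10.72 (median 10.52) in AtT-20. Xbp1 ran from 10.77 to 10.97 (median 10.94) and from 11.52 to 11.85 (median 11.62). Eif2ak3 overlapped, from 8.97 to 9.32 in 3134 and from 9.15 to 9.48 in AtT-20.

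Exon arrays also show whether the pieces of a gene differ alike. Between the lines at 0 h, 8 of 30 members had probesets that differed unequally (limma's diffSplice, Simes test, adjusted p under 0.05), against 28.6% of 11433 genes. With the run as a block 13 members did, against 52.5% of genes. In Calr, 1 of 13 probesets lay at -1.59 (levels of 10.84 in 3134 and 12.44 in AtT-20) and the other 12 between -0.17 and 0.70, with an adjusted p of 0.000204 for the gene. In Hsp90b1, all 21 probesets were higher in 3134 and 1 lay apart at 2.13, with 20 between 0.20 and 1.26 (adjusted p = 0.000244).

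Derl3 was called as well, but 9 of its 11 probesets read under 6.59 in 3134, so the sizes of their differences are set by that dim level and nothing is read from the call. The probeset with a difference of -0.09 read 12.67 in 3134 and 12.76 in AtT-20, unlike most other probesets of Derl3. Whether its signal comes from Derl3 alone was not tested. In Ern1, 2 of 25 probesets lay apart at -2.43 and -1.89, the latter from a level of 5.72 in 3134, and the other 23 between -1.19 and 0.02. Uggt1 had 1 of 46 probesets higher in 3134 (0.73) and 45 lower. The 2 probesets that lay apart were that one and another at -1.32. Single probesets also stood above the rest in Derl1 (1.61), P4hb (1.12) and Eif2ak3 (0.98), the first pair of them against levels of 5.77 and 6.28 in AtT-20, under 6.59. Calr passed without each of the 4 arrays at 0 h, and so did Derl3, from whose call nothing is read. Hsp90b1, Ern1 and the rest did not pass without replicate 2 of 3134 (Hsp90b1, adjusted p = 0.177), without replicate 1 of 3134 or replicate 2 of AtT-20 (Ern1, 0.264 and 0.24) or without any of several arrays (Uggt1, P4hb, Derl1 and Eif2ak3, the highest 0.996, 0.877, 0.996 and 0.996). For Uggt1, Derl1 and Eif2ak3 these were replicates 1 and 2 of 3134 and replicate 2 of AtT-20, and for P4hb replicate 2 of 3134 and both of AtT-20. Which exons the probesets cover was not analysed here.

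**Figure D3:**
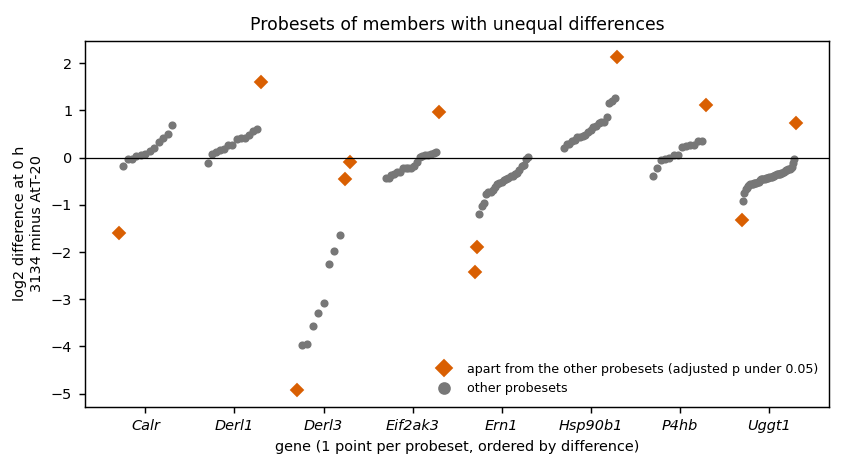
Each point is 1 probeset of the 8 members with unequal differences, ordered by its log2 difference at 0 h (3134 minus AtT-20, vertical axis); orange diamonds differ from the other probesets of their gene. Calr has 1 diamond far below its other 12 probesets, at -1.59, and the probesets of Derl3, 9 of 11 of them under log2 6.59 in 3134, spread from -4.92 to -0.09.

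The change after dexamethasone was compared with 0 h within each line, to ask whether the hormone moves this machinery. In 3134 Herpud1 rose, and most other members had changes under 0.2 on the log2 scale. At 2 h, 1 of 30 members was called (Herpud1), against 1.23% of all genes, and 3.0% with the run as a block. At 4 h, 0 of 30 were called in limma, against 1.91% of genes, with 2 members at an unadjusted p under 0.05. With the block 1 was called (Herpud1), against 5.19%. At 8 h, 0 were called, against 2.19%, with 2 at an unadjusted p under 0.05, and with the block Herpud1 was higher and Ero1a lower, against 7.90%. In the mean of the 3 times, 1 of 30 was called with and without the block (Herpud1), against 6.55% and 2.42% of all genes. The 3 times share the arrays at 0 h.

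Herpud1 encodes a membrane protein of the degradation complex that binds Syvn1 and is itself a known target of the unfolded protein response. Its log2 levels in 3134 were 10.26 and 9.85 at 0 h, 11.52 and 11.14 at 2 h, 11.13 and 11.02 at 4 h, then 11.02 and 10.74 at 8 h. All 6 treated arrays lay above both arrays at 0 h. The rise was 1.27 ± 0.238 at 2 h (2.42-fold, adjusted p = 0.022 in limma), 1.02 at 4 h (2.03-fold, adjusted p = 0.0562). At 8 h it was 0.83 (1.77-fold, adjusted p = 0.129). In the mean of the 3 times it was 1.04 ± 0.194 (2.06-fold, adjusted p = 0.0132).

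With the run as a block, Herpud1 passed at 2 h (adjusted p = 9.8e-05), 4 h (0.000383) and 8 h (0.00208). Within each run the changes of Herpud1 were alike: 1.25 and 1.29 at 2 h, 0.86 and 1.18 at 4 h, 0.76 and 0.89 at 8 h. All of its 10 probesets were higher at 2 h, by 0.56 to 1.63. On the deposited scale the difference at 2 h was 1.19 and did not pass (adjusted p = 1.00), nor did it with arrays centred on the median (1.27, adjusted p = 0.0514) or without the filter on dim genes (adjusted p = 0.0506). Without the block, the call at 2 h was lost without replicate 1 or 2 at 2 h (1.08 and 1.46, adjusted p = 0.258 and 0.0603) and without replicate 1 or 2 at 0 h (1.48 and 1.06, adjusted p = 0.0628 and 0.267). The call of the mean was lost without replicate 2 at 0 h (0.83, adjusted p = 0.299).

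In AtT-20, Herpud1 had levels of 10.26 and 9.78 at 0 h, 10.34 and 10.00 at 2 h, 10.42 and 10.02 at 4 h, then 10.36 at 8 h. The arrays at 2 h and 4 h overlapped those at 0 h, and the changes of 0.15, 0.20 and 0.34 did not pass. At 0 h the gene value of Herpud1 differed by 0.04 between the lines, while 7 of its 10 probesets were lower in 3134, with a median of -0.20 over the 10. The lines later lay apart, with a difference of 1.16 at 2 h (adjusted p = 0.00129). At 4 h this difference was 0.85 (adjusted p = 0.00911). The response in 3134 minus that in AtT-20, over 2 h and 4 h, was 0.97 ± 0.291 (95% interval 0.34 to 1.61). It did not pass over all genes (adjusted p = 0.309, unadjusted p = 0.00612) and passed with the run as a block (adjusted p = 0.00444). For this difference, 0 of 30 members were called against 0.645% of genes, 1 of them at an unadjusted p under 0.05, and 1 with the block against 2.73%.

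**Figure D4:**
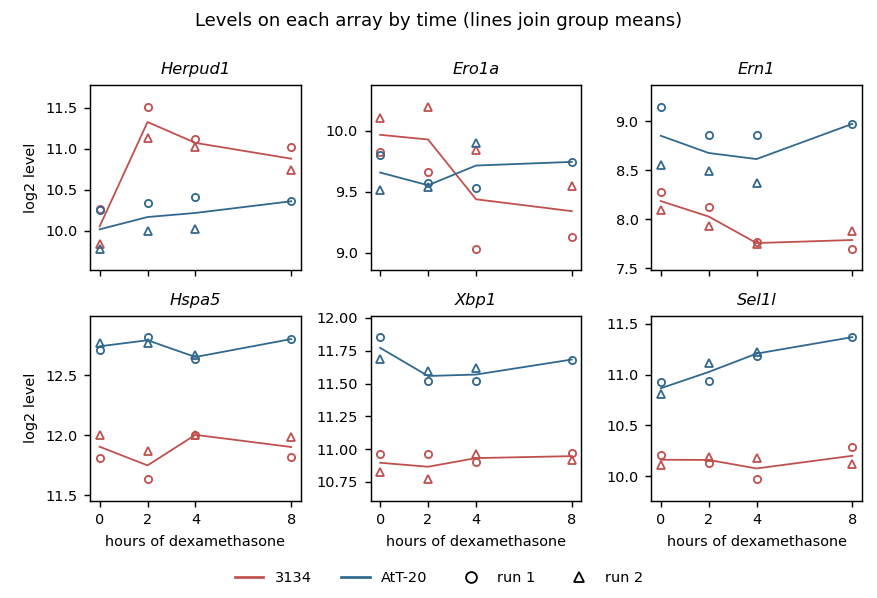
Quantile normalized log2 level (vertical axis, a scale of its own in each panel) against hours of dexamethasone for 6 members; symbols are single arrays of run 1 or 2 and lines join group means, with 1 array of AtT-20 at 8 h. Herpud1 is at 10.26 and 9.85 in 3134 and 10.26 and 9.78 in AtT-20 at 0 h and is higher in 3134 at 2 h (11.52 and 11.14), while Hspa5, Xbp1 and Ern1 keep the lines apart at all times.

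Without Herpud1, the farthest change was 0.33 at 2 h (Dnajb9), -0.53 at 4 h and -0.63 at 8 h (both Ero1a). At 2 h, 27 of 30 members changed by less than 0.2, and 23 of 30 did at 4 h and at 8 h. Hspa5 had levels of 11.63 and 11.86 at 2 h, 12.00 and 12.00 at 4 h, then 11.82 and 11.98 at 8 h, around its 11.81 and 12.00 at 0 h. The mean change of Hspa5 was -0.02 with a 95% interval from -0.29 to 0.25. Xbp1 had levels of 10.96 and 10.77 at 2 h, 10.90 and 10.96 at 4 h, then 10.97 and 10.92 at 8 h, and a mean change of 0.02 (-0.25 to 0.28). These intervals leave room for changes of up to about that size in either direction for these 2 genes. Intervals of some other members were wider. Without Herpud1, they reached from -0.90 to 0.62 in the mean and from -1.24 to 0.80 at 8 h.

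Ero1a, the oxidase that recharges the disulfide isomerases, had levels of 9.83 and 10.10 at 0 h, 9.66 and 10.20 at 2 h, 9.03 and 9.84 at 4 h, then 9.13 and 9.55 at 8 h in 3134. Both arrays at 8 h lay under both at 0 h. The change at 8 h, -0.63 ± 0.280, did not pass (adjusted p = 0.417) and passed with the run as a block (adjusted p = 0.0443), with -0.70 and -0.56 in the runs. Ern1 was at 8.12 and 7.94 at 2 h, 7.77 and 7.74 at 4 h, then 7.70 and 7.88 at 8 h in 3134, against 8.28 and 8.09 at 0 h. Its changes of -0.16, -0.43 and -0.40 had the same sign in both runs and did not pass (adjusted p = 0.592 at 8 h). Eif2ak3 was at 8.97 and 9.32 at 2 h, 9.15 and 9.27 at 4 h, then 9.02 and 9.30 at 8 h, with changes of 0.01, 0.07 and 0.02.

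In AtT-20, no member was called at 2 h, 4 h or 8 h in limma, against 0.0907%, 0.171% and 0.121% of all genes. With the run as a block 0 were called as well, against 0.323%, 0.857% and 0.444%. In the mean of 2 and 4 h, 0 of 30 were called, against 0.181% of genes and 0.756% with the block. At an unadjusted p under 0.05 there were 0 members at 2 h, 1 at 4 h (Sel1l), 2 at 8 h (Sel1l and Creld2) and 0 in the mean. Sel1l was at 10.92 and 10.81 at 0 h, 10.94 and 11.12 at 2 h, 11.19 and 11.22 at 4 h, then 11.37 at 8 h. Each later array lay above both arrays at 0 h, and the changes of 0.16, 0.34 and 0.50 did not pass over all genes (adjusted p = 1.00 at 4 h). Creld2 was 0.63 higher on the only array at 8 h.

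Hspa5 in AtT-20 was at 12.82 and 12.76 at 2 h, 12.63 and 12.67 at 4 h, then 12.80 at 8 h, with changes of 0.05, -0.09 and 0.06. Xbp1 was at 11.52 and 11.60 at 2 h, 11.52 and 11.62 at 4 h, then 11.68 at 8 h, all under its 11.85 and 11.69 at 0 h, with changes of -0.21, -0.20 and -0.09 that did not pass. Ern1 was at 8.86 and 8.49 at 2 h, 8.86 and 8.37 at 4 h, then 8.98 at 8 h, and Eif2ak3 at 9.15 and 9.45, 9.18 and 9.24, and 9.25. The largest change of a member was 0.21 at 2 h, 0.34 at 4 h and 0.63 at 8 h.

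**Figure D5:**
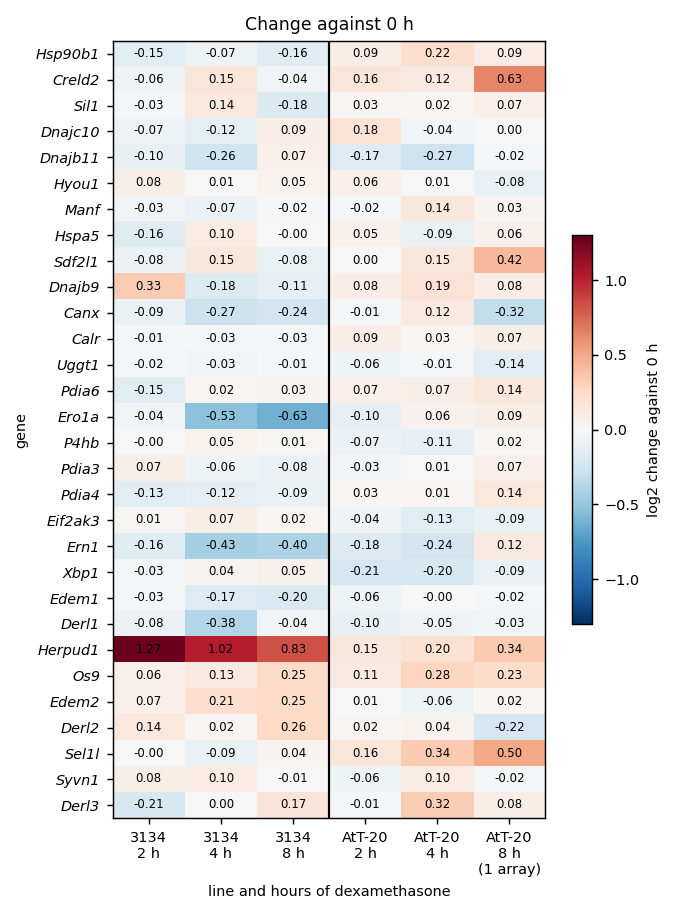
Log2 change against 0 h of the same line for the 30 measured members (rows) at 2, 4 and 8 h in both lines (columns), with the value printed in each cell; AtT-20 at 8 h rests on 1 array. Herpud1 in 3134 (1.27, 1.02 and 0.83) stands out from a grid of values mostly under 0.2 in size, and Ero1a in 3134 reaches -0.63 at 8 h.

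The members that lay apart between the lines were followed over time as well. In 3134, Derl3 was at 5.80 and 5.50 at 2 h, 5.47 and 6.26 at 4 h, then 5.82 and 6.24 at 8 h, and in AtT-20 it was at 8.60 and 8.35, 9.05 and 8.56, and 8.57. Dnajb9 was at 9.30 and 8.86 at 2 h, 8.82 and 8.33 at 4 h, then 8.50 and 8.78 at 8 h in 3134, and at 10.53 and 10.43, 10.52 and 10.66, and 10.48 in AtT-20. Neither line's arrays of Derl3 or Dnajb9 overlapped those of the other line, though Derl3 was under 6.59 on all 3134 arrays and nothing is read from its separation. Syvn1 stayed between 8.11 and 8.51 in 3134 and between 9.13 and 9.63 in AtT-20, and Sdf2l1 between 8.96 and 9.67 and between 10.04 and 11.01. Canx ran from 10.85 to 11.66 in 3134 and from 10.29 to 10.96 in AtT-20. Edem1, which stayed apart, had its highest 3134 arrays at 0 h and 2 h, 10.16 and 10.15, and its lowest at 4 h and 8 h, 9.82 and 9.83. Hsp90b1 (12.19 to 12.64 in 3134, 11.84 to 12.27 in AtT-20) overlapped and Pdia6 (12.23 to 12.62 and 12.03 to 12.22) did not.

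Genes that share the pathway but are not members were counted from companion lists. At 0 h, 47 of 121 companion genes tested differed (38.8%), against 54.5% of all genes. Of them, 6 had a mean under 6.59 in 1 line, so they were tested only because of the other line, and their levels are given in place of a difference. Of 15 other stress sensors and effectors tested, 2 were higher and 7 lower in 3134. Lower were Chac1 (-2.36) and Atf3 (4.76 in 3134, 7.29 in AtT-20), which act downstream of Eif2ak3. Atf4 and Ddit3 of the same list were not lower in 3134, at 0.08 and 0.36, and did not pass. On the other side were the membrane protein Tmbim6 (1.16) and the protease Mbtps2 (0.67), which cuts Atf6. Of 26 other folding proteins, 7 were higher and 5 lower. The prolyl isomerase Fkbp9 was at 11.02 in 3134 and 4.20 in AtT-20, and the collagen prolyl hydroxylase P4ha2 at 9.56 and 4.43. The calnexin relative Clgn was at 3.69 in 3134 and 8.46 in AtT-20, and Cnpy2 differed by -1.31. Of 18 genes of translocation and signal peptidase, 1 was higher (Ssr3, 0.70) and 5 were lower, with Sec11a at -1.49 and Ssr4 at -1.28.

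Of 14 genes of N-glycosylation, 2 were higher (Magt1, 0.92; Tusc3, 0.49) and 3 lower (Alg5 at -1.10 and Ostc at -0.58 the farthest). Of 16 other degradation factors, 2 were higher (Ubxn4, 0.73; Vcp, 0.57) and 2 lower (Nploc4, -0.56; Erlec1, -0.55). Of 14 genes of COPII vesicles and retrieval, 3 were higher, with Sec23a at 1.37 and Kdelr3 at levels of 9.85 in 3134 and 6.41 in AtT-20, and 1 was lower (Sar1b, -0.63). Of 18 cytosolic and mitochondrial chaperones, 5 were higher, with Bag3 at 1.37 and Hspb1 at levels of 8.45 in 3134 and 5.55 in AtT-20, and 2 were lower (Hsph1, -0.59; Cct3, -0.57). The list medians lay between -0.50 (other stress sensors) and 0.12 (COPII), against -0.10. The calls of Ssr3, Magt1, Tusc3, Ostc, Ubxn4, Vcp, Nploc4, Erlec1, Hsph1 and Cct3 did not hold without some array at 0 h. Without replicate 1 of 3134 this was so for Tusc3 (0.53), Ostc (-0.49), Ubxn4 (0.68), Erlec1 (-0.57) and Hsph1 (-0.37), and without replicate 2 for Magt1 (0.72), Tusc3 (0.46), Ubxn4 (0.78), Vcp (0.47), Nploc4 (-0.40), Erlec1 (-0.54) and Cct3 (-0.50). Without replicate 1 of AtT-20 it was so for Magt1 (0.70), Tusc3 (0.29), Ostc (-0.56), Nploc4 (-0.54), Erlec1 (-0.50) and Hsph1 (-0.50), and without replicate 2 for Ssr3 (0.50), Ubxn4 (0.57) and Erlec1 (-0.61).

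After dexamethasone, 2 of 121 companion genes were called in the mean of 3134 (1.65%), against 2.42% of all genes, and 7 with the run as a block (5.79%), against 6.55%. These shares were not above the background, so nothing is read from them about the pathway. The 2 genes, given as single values, were Chac1 and Ddit3. Chac1, which degrades glutathione, had levels of 8.91 and 8.68 at 0 h, 7.97 and 7.83 at 2 h, 7.27 and 7.65 at 4 h, then 7.43 and 7.56 at 8 h. All 6 treated arrays lay under both arrays at 0 h, and the mean change was -1.18 ± 0.160 (adjusted p = 0.00127). Ddit3 (CHOP), a transcription factor induced in the stress response, was at 8.24 and 8.06 at 0 h, 7.30 and 6.91 at 2 h, 7.06 and 7.05 at 4 h, then 7.85 and 7.20 at 8 h. The mean change of Ddit3 was -0.92 ± 0.180 (adjusted p = 0.0175). It did not pass without replicate 1 at 0 h (-0.83, adjusted p = 0.295) or replicate 2 at 0 h (-1.01, adjusted p = 0.132). With the run as a block, Trib3 (-0.49), Atf4 (-0.53) and Tram2 (-0.49) fell and Hspb1 (0.70) and Ube2g2 (0.50) rose as well. In AtT-20 none of the companion genes was called in the mean of 2 and 4 h, with or without the block, and Chac1 was at -0.07 and Ddit3 at -0.36.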

How the data were processed

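RNA of both lines was measured on 15 exon arrays. The deposited values are log2 signals per probeset, which the authors made by RMA in Affymetrix Expression Console according to what the submitters' processing notes list. No version of either is known here. The deposited columns were not on 1 level. In 3134 the first run of arrays had medians of 7.83 to 8.14 and the second 6.76 to 7.2. In AtT-20 they were 7.51 to 7.86 in the first and 6.93 to 7.22 in the second. All 228090 probesets were therefore quantile normalized. Probesets with 1 gene symbol in the platform annotation (207232) were kept, and old symbols were updated through RefSeq (GRCm38.p6), among them Armet to Manf, Ugcgl1 to Uggt1 and Ero1l to Ero1a. A gene's value was the median over its probesets, with at least 3. Genes were tested if 1 of the 8 group means was at or above the 40th percentile of the values (log2 6.59), which kept 9919 genes and all 30 measured members.

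Group means were fitted with limma 3.58.1 in R 4.3.3 (lmFit, eBayes, 2-sided, all 15 arrays, 7 residual degrees of freedom), and every adjusted p is limma's, after Benjamini and Hochberg over all genes tested, with a threshold of 0.05. Intervals are 95%. Precision is limited by the few arrays, with a median standard error of 0.215 for a difference of groups of 2. Unequal probesets were tested with diffSplice. The serial numbers in the titles split the arrays of either line into a first and a second run. Deviations from group means correlated at 0.491 to 0.591 for pairs of groups of the same line and at 0.276 to 0.39 across lines. The runs were therefore taken to pair the arrays. The main values come from the fit without a block, and those of a fit with a block for the run, which left 5 residual degrees of freedom, are given beside them where it changes a call. Promoters were searched and figures drawn in Python with pandas and matplotlib. The tests were tried on simulated data that held no difference between runs, unlike these arrays, so no conclusion is drawn from that trial.

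The members, roles and companion lists were chosen with earlier results of these data known. Values on every array are given for members called against 0 h or in the difference of responses, for the 4 called each way that were farthest apart between the lines, and for Hspa5, Xbp1, Ern1 and Eif2ak3. From each companion list the 2 farthest called genes each way at 0 h are named, and those called in a mean response. Sel1l, Ero1a and Creld2 were added after their values were seen, and so were the comparisons of the lines at 2 h and 4 h. Other alternatives were the deposited scale, median centring, other filters, the mean over probesets and leaving out arrays.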

Additional observations from a re-analysis of the deposited data

Results flagged for a closer look

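Herpud1 was singled out because its response differed between the lines under 1 of the fits. The mean response at 2 h and 4 h in 3134 minus that in AtT-20 was 0.97 on the log2 scale, with an adjusted p of 0.309 in limma and of 0.00444 with the run as a block.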

How the results depend on the processing

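Of the recomputed counts of called members, 140 stayed within 1.5 times the reported one and 28 did not. The 140 include counts of 0 that stayed 0, as in AtT-20. On the values as deposited, 1 member was called between the lines at 0 h, 0 at 2 h in 3134, 0 in the mean of 3134 and 0 for unequal probesets. Over all genes, 1979 were called between the lines at 0 h on that scale, 12 at 2 h in 3134 and 24 in its mean. With the replicate block on that scale, there was 1 member at 4 h in 3134 (lower), 2 at 8 h and 2 in the mean, against 471, 1163 and 541 of all genes. With the replicate block alone, 1 was called at 4 h, 2 at 8 h, 1 for the difference of responses and 13 for unequal probesets. The shares of all genes in these fits are given above. With arrays centred on the median, 0 members were called at 2 h and 0 in the mean of 3134, against 113 and 202 of all genes. Centring with the block was an alternative chosen after seeing the data. It gave 1 member at 4 h, 2 at 8 h and 1 for the difference, against 554, 934 and 279 of all genes. Without the filter on dim genes 0 were called at 2 h, and 1 was called at 4 h under the 60th percentile filter and 1 under an intensity trend. Leaving out 1 array gave 10 to 13 members between the lines, 0 each time at 2 h in 3134, 0 to 1 in its mean and 4 to 10 for unequal probesets. For the other filters and for leaving out arrays, shares of all genes are not given here. Nothing about the members in particular is read from those counts. Leaving out the array of AtT-20 at 8 h was not possible, since it is the only one. Differences of members were recomputed only where they were called with or without the block. Of these, 293 kept their side of the threshold, 58 lost and 21 gained it. None changed sign, which says little, since differences large enough to be called rarely do. The cause of these changes was not tested. On the deposited scale the median over all genes was -0.07, -0.31 and -0.37 at 2, 4 and 8 h in 3134 and 0.01, -0.21 and 0.48 in AtT-20, so changes there are read relative to these shifts. Signal near background limits Derl3 in 3134.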
